A study of Mus musculus with 12 samples.

Results

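Transcripts of 10 genes that mark the chambers of the heart were followed in 12 RNA-seq libraries of the mouse ascending aorta. The genes were taken by symbol from the 21954 rows of the deposited expression table, and all 10 were found there. They comprise 4 atrial genes (Myl4, Myl7, Nppa, Sln), 3 ventricular genes (Myl2, Myl3, Myh7) and 3 genes that are not assigned to either set (Myh6, Pln, Corin). All 10 were among the 17297 genes that reached 1 RPKM in at least 3 libraries and were tested. Myl4 and Sln reached that level in proximal libraries alone, and Nppa and Corin in too few distal libraries to pass on those. These genes, Myl4, Sln, Nppa and Corin, thus entered the test through the location where they were higher.

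The libraries were made from 6 mice at 2 months of age, with the proximal part of the ascending aorta, next to the root and the heart, and the distal part sequenced separately for each mouse. 3 mice were wildtype littermates of strain 129S6 and 3 carried the genotype Notch1.129S6+/-, written Notch1+/- below. This gives 4 groups of 3 libraries, 1 per mouse, and the study asked why dilation in these mice affects the aortic root. The labels do not state which part of Notch1 the allele lacks, nor the sex of the mice, and the tissue was not sorted by cell type. Values are RPKM, reads per kilobase of gene scaled to the counted reads of the library. Levels of different genes can be compared only as far as the gene lengths used are right. Total reads were 26518332 to 36742096 per library, and values under a detection threshold in RPKM had been replaced by 0.158 RPKM, called the floor here. Notch1 itself stood at 1.11, 1.19 and 1.56 RPKM in wildtype and at 2.20, 1.65 and 1.63 RPKM in Notch1+/- proximal libraries. In distal libraries it was 1.12, 0.972 and 0.538 RPKM in wildtype and 1.18, 1.85 and 1.51 RPKM in those labelled Notch1+/-. The gene was thus higher in each library labelled Notch1+/- than in all wildtype libraries of its location, and no lower level was seen. Of all tested genes, 9.18% differed between genotypes without overlap in proximal and 6.37% in distal tissue. With the allele not described, the Notch1 levels do not settle whether 1 copy was lost. Every genotype difference below therefore refers to the libraries labelled Notch1+/-. Smooth muscle, the defining cell type of the aortic wall, was present throughout, with 8 of its marker genes summing to 3552 to 5581 RPKM in proximal and 3574 to 6220 RPKM in distal libraries.

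Heart muscle contracts through thick filaments built of myosin heavy chains, each of which carries a regulatory and an essential light chain. Atrial and ventricular muscle use different versions: Myl7 and Myl4 are the atrial regulatory and essential light chains, and Myl2 and Myl3 their ventricular counterparts. Myh6 encodes the fast alpha heavy chain, the main heavy chain of both chambers in the adult mouse, and Myh7 the slow beta heavy chain. Nppa encodes the precursor of atrial natriuretic peptide, a hormone that atrial muscle stores and releases, and Corin the membrane protease that cuts that precursor. Sln (sarcolipin) and Pln (phospholamban) are small membrane proteins that restrain the calcium pump of the sarcoplasmic reticulum.

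Both heavy chain genes lie next to each other on the minus strand of chromosome 14 (mm10), Myh6 at 54941981 to 54966927 and Myh7 at 54970688 to 54994634, and each holds a microRNA in its span. The mature 3p arms of these microRNAs, from RefSeq (GRCm38.p6), are shown because they differ between the paired genes outside the seed. miR-208a-3p lies at chr14:54949072-54949093 and miR-208b-3p at chr14:54975710-54975731, both on the minus strand, and capitals mark the seed, bases 2 to 8, which both share.
miR-208a-3p: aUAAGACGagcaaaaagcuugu
miR-208b-3p: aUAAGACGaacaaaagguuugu

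The 250 bases before the RefSeq start (GRCm38.p6) of the atrial genes Myl7 and Nppa and the ventricular gene Myl3 are shown next as examples of both sets. Capitals mark motifs found by a search of both strands for GATA (the letters GATA preceded by A or T and followed by A or G), the Nkx2-5 element NKE (TNAAGTG), the CArG box and the MEF2 site. Cardiac GATA factors, Nkx2-5, serum response factor and MEF2 factors are known to bind such motifs. The Myl7 window (chr11:5898783-5899032, minus strand) held a CArG box at positions -61 to -52 and a GATA motif at -42 to -37 from the start. In the Nppa window (chr4:148000472-148000721, plus strand) the capitals are an NKE at -241 to -235 and a GATA motif at -122 to -117. The Myl3 window (chr9:110763428-110763677, plus strand) held a CArG box at -85 to -76, and its RefSeq start lies 21817 bases inside the start of the gene in the deposited table.
Myl7: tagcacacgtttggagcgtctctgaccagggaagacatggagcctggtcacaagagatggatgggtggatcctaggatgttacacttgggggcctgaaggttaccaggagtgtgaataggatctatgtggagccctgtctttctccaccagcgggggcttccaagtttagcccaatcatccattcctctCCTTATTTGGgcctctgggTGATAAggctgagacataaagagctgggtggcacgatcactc
Nppa: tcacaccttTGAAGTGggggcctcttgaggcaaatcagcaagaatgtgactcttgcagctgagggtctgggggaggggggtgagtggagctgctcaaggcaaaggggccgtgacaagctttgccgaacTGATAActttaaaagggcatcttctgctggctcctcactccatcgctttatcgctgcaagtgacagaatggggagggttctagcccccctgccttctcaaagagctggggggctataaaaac
Myl3: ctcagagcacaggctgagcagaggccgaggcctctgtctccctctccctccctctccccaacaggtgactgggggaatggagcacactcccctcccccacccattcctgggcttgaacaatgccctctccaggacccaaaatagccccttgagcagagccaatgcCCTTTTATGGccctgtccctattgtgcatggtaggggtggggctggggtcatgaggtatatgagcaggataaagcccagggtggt
RefSeq windows were at hand for 9 of the 10 genes, all except Sln. Of those not printed, windows of the ventricular gene Myl2 and of Myh6 and Pln also held a GATA motif. A window of Myh7 held an NKE, and the windows of the atrial gene Myl4 and of Corin held no motif. The GATA letters were thus neither particular to the atrial genes nor present in all of them. Among 32851 such windows of all genes, 26.5% held the GATA letters, 10.1% the NKE, 2.92% a MEF2 site and 1.47% a CArG box. No motif overlapped another in the windows printed. A match describes the letters and not a bound site.

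The ventricular regulatory light chain gene Myl2 (ENSMUSG00000013936, mm10 chromosome 5, 122100951 to 122113472, plus strand) was read in every library. In proximal tissue it stood at 7.61, 30.9 and 66.0 RPKM in wildtype mice 1 to 3 and at 30.7, 37.9 and 41.9 RPKM in Notch1+/- mice 1 to 3. In distal tissue it stood at 2.02, 21.6 and 2.07 RPKM in wildtype and at 12.3, 1.74 and 0.621 RPKM in Notch1+/- libraries. Distal libraries of wildtype mouse 2 and Notch1+/- mouse 1 thus held far more of it than the other distal libraries, and both exceeded the proximal library of wildtype mouse 1. Each mouse had more Myl2 in its proximal than in its distal tissue, by 1.43-fold to 67.5-fold. Differences were fitted with limma on log2(RPKM + 0.5) across all tested genes, and a gene is called here when its adjusted p is under 0.05. The fitted log2 difference averaged over genotypes was 2.92 (SE 0.70), and it did not pass the test (limma, Benjamini-Hochberg adjusted p 0.0679).

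Myl3, the ventricular essential light chain (ENSMUSG00000059741, chromosome 9, 110741861 to 110769798, plus strand), followed the same libraries at a lower level. Proximal levels were 4.94, 16.4 and 40.4 RPKM in wildtype and 27.4, 23.1 and 28.5 RPKM in Notch1+/- mice. Distal levels were 0.338, 8.50 and 1.04 RPKM in wildtype and 5.29 RPKM, 0.271 RPKM and the floor in Notch1+/- mice. Again wildtype distal 2 and Notch1+/- distal 1 were high, and the locations overlapped, since both lay above wildtype proximal 1. Myl3 was called higher in proximal tissue (log2 3.50, SE 0.68, limma adjusted p 0.0234), and it was higher in 6 of 6 mice. Myh7 (ENSMUSG00000053093) ranged from 16.7 to 98.1 RPKM in proximal and from 0.764 to 30.1 RPKM in distal libraries, with its lowest proximal and highest distal values in those same libraries. It was also called higher, with a log2 difference of 3.65 (SE 0.78, limma adjusted p 0.0373) and the same direction in 6 of 6 mice.

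**Figure D1:**
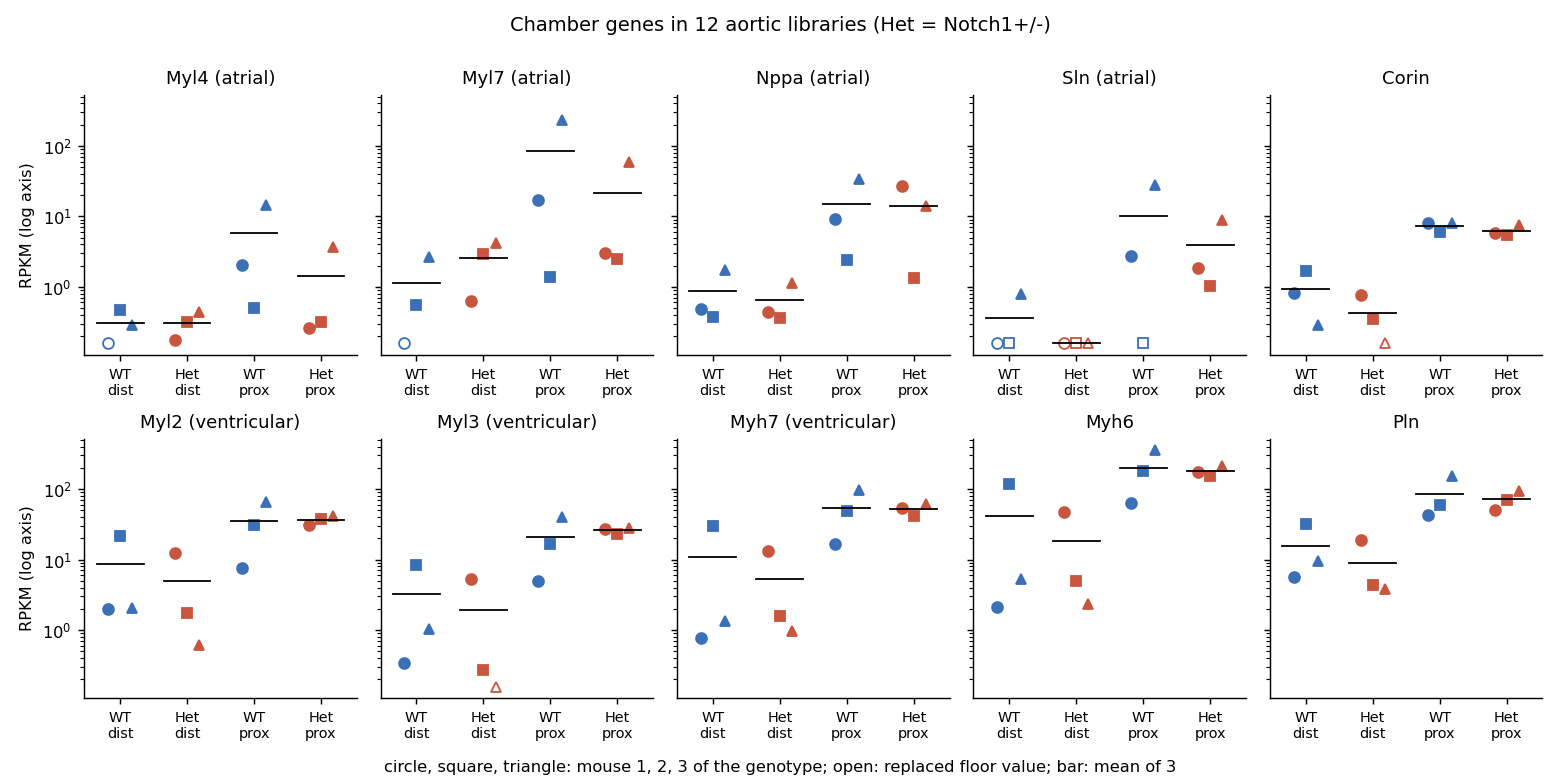
RPKM of each of the 10 chamber genes in each of the 12 libraries on a log axis, with 1 point per library, shapes for the 3 mice of each genotype (Het is Notch1+/-), open symbols for values at the floor and a bar at the mean of 3 libraries. Myl7 spans 1.36 to 234 RPKM among proximal libraries, whereas Corin spans 5.49 to 8.05 RPKM.

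Myh6 (ENSMUSG00000040752) had the highest level of the 10 genes in 9 of the 12 libraries. Pln was highest in wildtype distal 1 and 3, and Myl7 in Notch1+/- distal 3. Its proximal levels were 63.2, 179 and 354 RPKM in wildtype and 174, 155 and 213 RPKM in Notch1+/- mice. Its distal levels were 2.12, 119 and 5.30 RPKM in wildtype and 48.0, 4.93 and 2.31 RPKM in Notch1+/- mice. Only wildtype distal 2 exceeded the lowest proximal library. The mean was 189.7 ± 95.2 RPKM in proximal and 30.2 ± 46.8 RPKM in distal libraries (SD, n = 6 each), a ratio of 6.28. Myh6 was called higher in proximal tissue (log2 4.01, SE 0.89, limma adjusted p 0.0470). The distal SD exceeds the distal mean, and the ratio within a mouse ran from 1.51 in wildtype mouse 2 to 92.2 in Notch1+/- mouse 3.

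Pln (ENSMUSG00000038583, chromosome 10, 53337686 to 53345999, plus strand) varied less than the myosin chains. It stood at 42.6 to 153 RPKM in proximal libraries and at 3.77 to 32.4 RPKM in distal libraries, so the locations did not overlap. Its log2 difference was 2.89 (SE 0.48, limma adjusted p 0.0103), with 6 of 6 mice higher in proximal tissue. Reads of Pln are uncertain, because 64.7% of its exon bases overlap Cep85l or Gm47644 on the other strand and the kit used does not mark strand.

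Corin (ENSMUSG00000005220, chromosome 5, 72300025 to 72504473, minus strand) was the most even of the 10 genes in proximal tissue. It stood at 7.96, 6.09 and 8.05 RPKM in wildtype and at 5.76, 5.49 and 7.62 RPKM in Notch1+/- proximal libraries. The distal levels were 0.819, 1.70 and 0.288 RPKM in wildtype and 0.777 RPKM, 0.354 RPKM and the floor in Notch1+/- mice. All proximal libraries thus lay above all distal libraries, and wildtype proximal 1, the proximal library with the least Myh6, Myl2 and Myl3, had nearly the most Corin. The means were 6.83 ± 1.17 RPKM in proximal and 0.682 ± 0.565 RPKM in distal libraries (SD, n = 6 each, with 1 distal library at the floor), a ratio of 10.0. Corin had the lowest adjusted p of the 10 genes in the averaged contrast (log2 2.74, SE 0.25, limma adjusted p 1.44e-04).

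The atrial regulatory light chain gene Myl7 (ENSMUSG00000020469, chromosome 11, 5896637 to 5898782, minus strand) was spread over a far wider range than the ventricular genes. It stood at 16.8, 1.36 and 234 RPKM in wildtype and at 3.04, 2.48 and 58.3 RPKM in Notch1+/- proximal libraries. In distal libraries it lay at the floor, 0.552 RPKM and 2.64 RPKM in wildtype and at 0.638, 2.93 and 4.20 RPKM in Notch1+/- mice. Mouse 3 of either genotype had the highest proximal level, the mouse numbers being names without a link across genotypes, and 3 proximal libraries fell inside the distal range. The log2 difference was 2.81 (SE 1.06) and did not pass the test (limma adjusted p 0.304), while 5 of 6 mice were higher in proximal tissue. Behind these values stood 2410 reads in wildtype proximal 3 and 14 reads in wildtype proximal 2, and distal values above the floor rest on 6 to 43 reads.

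Myl4, the atrial essential light chain (ENSMUSG00000061086, chromosome 11, 104550663 to 104595753, plus strand), was high in the same libraries as Myl7. It reached 2.04, 0.495 and 14.7 RPKM in wildtype and 0.262, 0.316 and 3.64 RPKM in Notch1+/- proximal tissue. No distal library exceeded 0.468 RPKM. Sln (ENSMUSG00000042045, chromosome 9, 53850251 to 53853844, plus strand) stood at 2.72 RPKM, the floor and 27.7 RPKM in wildtype and at 1.87, 1.02 and 8.83 RPKM in Notch1+/- proximal libraries. It was at the floor in 5 of 6 distal libraries and at 0.783 RPKM in wildtype distal 3. Neither gene passed the test, with log2 differences of 1.43 (SE 0.59, limma adjusted p 0.372) for Myl4 and 2.27 (SE 0.73, limma adjusted p 0.202) for Sln.

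Nppa (ENSMUSG00000041616, chromosome 4, 148000722 to 148002079, plus strand) was the atrial gene that passed the test. It stood at 9.18, 2.39 and 33.9 RPKM in wildtype and at 26.9, 1.35 and 14.1 RPKM in Notch1+/- proximal libraries. Distal levels were 0.479, 0.376 and 1.73 RPKM in wildtype and 0.435, 0.356 and 1.13 RPKM in Notch1+/- mice. Notch1+/- proximal 1 held much Nppa with little Myl7, unlike wildtype proximal 3, which was highest for both. The ratio of Nppa to Myl7 was 8.84 in the former and 0.145 in the latter. Nppa was higher in proximal tissue in 6 of 6 mice, with a log2 difference of 3.02 (SE 0.67, limma adjusted p 0.0463). Its reads are uncertain too, since 61.5% of its exon bases overlap Gm13054 on the opposite strand.

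Over the whole set, 6 of 10 genes were called higher in proximal tissue and 0 lower, against 0.775% of all tested genes called higher and 1.50% called in either direction. Among the called genes, Nppa and Corin entered the test through the location where they were higher, as did Myl4 and Sln among those not called. This raises the share called among the 10. The called genes that would also have passed on distal libraries were Myl3, Myh7, Myh6 and Pln. Proximal and distal libraries did not overlap for 2 of the 10, Pln and Corin, where 0.838% of tested genes lay higher without overlap. The same limit holds for Corin there. By role, 1 of 4 atrial, 2 of 3 ventricular and 3 of 3 other genes were called. The median fitted log2 difference was 2.90 over the 10 genes and -0.05 over all tested genes, and it was 2.54 for the atrial and 3.50 for the ventricular genes. Leaving out 1 library moved the number called to between 2 and 6, with Pln and Corin called in all 12 such fits. The count was 2 without wildtype proximal 3, without Notch1+/- proximal 1 or 3, without wildtype distal 1 or 3, or without Notch1+/- distal 2 or 3, and 3 without Notch1+/- proximal 2. Without the pair of proximal libraries highest in Myl7, a choice that narrows the difference by construction, only Corin was called. In bulk tissue, fewer cells of a type and less RNA per cell cannot be told apart.

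**Figure D2:**
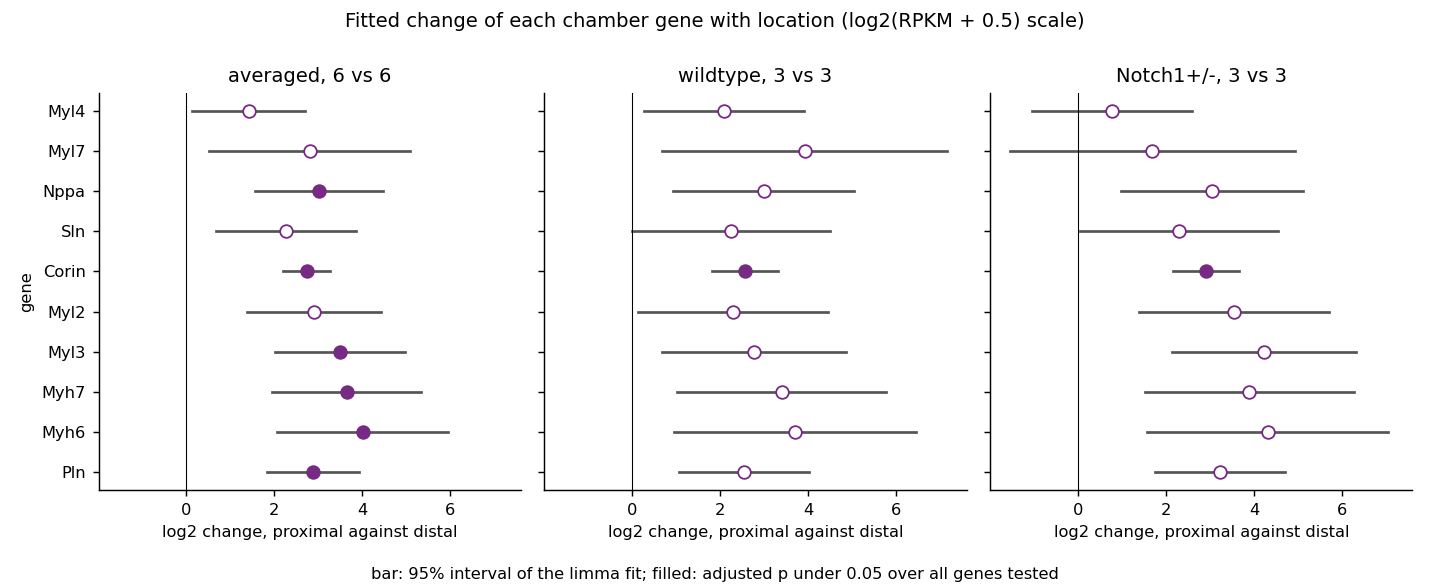
Fitted log2 difference between proximal and distal libraries on the log2(RPKM + 0.5) scale for each chamber gene, averaged over genotypes and within each genotype, with 95% intervals of the limma fit and filled points for an adjusted p under 0.05. Corin is called in all 3 panels, with intervals of 2.20 to 3.28, 1.81 to 3.33 and 2.15 to 3.67.

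Within a genotype, where 3 libraries stood against 3, Corin was the only chamber gene called. Its log2 difference was 2.57 (SE 0.35, limma adjusted p 0.0104) in wildtype mice, and 0.116% of all tested genes were called higher there. With the mouse as a block the limma adjusted p in wildtype was 0.0524, which ends that call, and the call was also lost without wildtype proximal 1 or 3 or wildtype distal 1 or 3. In Notch1+/- mice it was 2.91 (SE 0.35, limma adjusted p 0.00375), against 0.214% of tested genes called higher. All 10 genes were fitted higher in proximal tissue in both genotypes, with medians of 2.67 and 3.14 on the log2 scale against -0.13 and 0.02 for all tested genes. Myl4 had the smallest fitted difference in Notch1+/- mice, at 0.77 (SE 0.84), and 2.09 (SE 0.84) in wildtype. Proximal and distal libraries did not overlap for 4 genes in wildtype (Myl4, Nppa, Pln, Corin), where 2.61% of tested genes lay higher without overlap. In Notch1+/- mice they did not overlap for 8 genes, all except Myl4 and Myl7, against 7.55% of tested genes.

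No chamber gene was called between genotypes. The order of the 4 group means placed both proximal groups above both distal groups for all 10 genes. How many of all tested genes share this order was not counted, so it carries no comparison. Libraries of the 2 genotypes overlapped for all 10 genes at either location. Without overlap, 9.18% of tested genes differed between genotypes in proximal and 6.37% in distal tissue. Myh6, for example, averaged 199 ± 147 RPKM in wildtype and 181 ± 29.6 RPKM in Notch1+/- proximal tissue (SD, n = 3 each). Limma called 0 chamber genes and 0% of tested genes at an adjusted p under 0.05 in proximal tissue, in distal tissue and for the interaction. At an unadjusted p under 0.05 the chamber genes still gave 0, while 561, 524 and 507 of all tested genes reached it. Corin stood at 7.37 ± 1.10 RPKM in wildtype and 6.29 ± 1.16 RPKM in Notch1+/- proximal tissue (SD, n = 3 each).

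The paired light chains separated the libraries by their ratios. In proximal tissue the ratio of Myl7 to Myl2 was 2.21, 0.0440 and 3.54 in wildtype and 0.0991, 0.0654 and 1.39 in Notch1+/- mice. By RPKM the atrial chain thus exceeded the ventricular chain in wildtype mice 1 and 3 and Notch1+/- mouse 3. It lay at least an order of magnitude below it in the other 3. Which chain is higher depends on the gene lengths behind RPKM, 590 bases for Myl7 and 1950 for Myl2. In reads, Myl2 exceeded Myl7 in wildtype proximal 1 (297 against 199) and Notch1+/- proximal 3 (1509 against 635). It did not in wildtype proximal 3 (2254 against 2413). In distal tissue the ratio was 0.0782 (Myl7 at the floor), 0.0255 and 1.27 in wildtype and 0.0518, 1.68 and 6.77 in Notch1+/- mice. The first is no strict bound, as the detection threshold of wildtype distal 1 was 0.189 RPKM, above the floor. The lowest distal ratios above the floor belonged to wildtype distal 2 and Notch1+/- distal 1, the distal libraries with the most Myh6 and Myl2. The ratio of Myl4 to Myl3 in proximal tissue was 0.412, 0.0302 and 0.363 in wildtype and 0.00957, 0.0137 and 0.128 in Notch1+/- mice, highest in the same 3 libraries. Notch1+/- distal 2 and 3, with ratios of 1.18 and at least 2.76, rest on 9 reads or fewer of Myl3.

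The heavy chains did not separate in this way. The ratio of Myh6 to Myh7 was 3.78, 3.70 and 3.61 in wildtype and 3.20, 3.69 and 3.49 in Notch1+/- proximal libraries. In distal libraries it ran from 2.35 to 3.97, although Myh6 itself varied from 2.12 to 119 RPKM there. Reads of this pair are in part uncertain, since 21.9% of the 50-base words of Myh6 transcripts also occur in Myh7, and 13.3% of Myh7 exon bases overlap genes on the opposite strand. The other 8 genes shared none of their 50-base words with the families searched. The microRNA gene Mir208b, inside Myh7, was listed above the floor in 6 libraries at 0.703 to 2.11 RPKM, 5 of them proximal and the other wildtype distal 2, values that rest on 1 to 3 reads each.

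**Figure D3:**
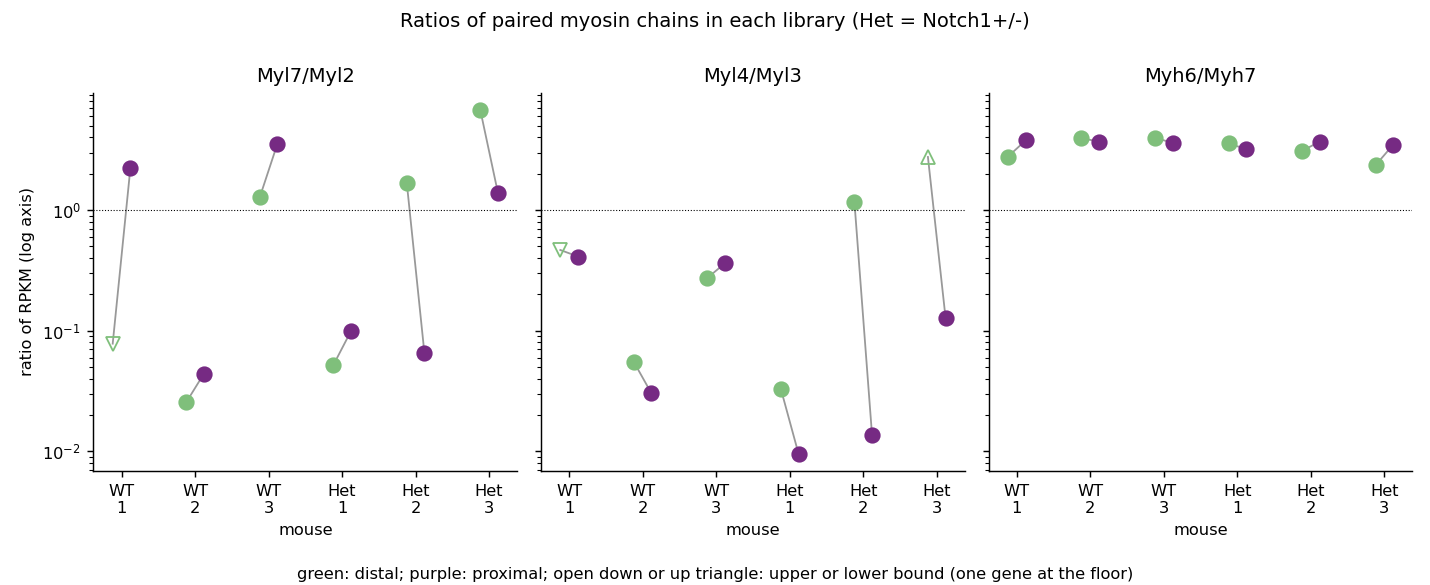
Ratio of RPKM for the light chain pairs Myl7 to Myl2 and Myl4 to Myl3 and the heavy chain pair Myh6 to Myh7 in each library, on a log axis, with distal (green) and proximal (purple) tissue of a mouse joined by a line and open triangles for bounds where 1 gene lay at the floor. In wildtype distal 1 the bounds are not strict, as its detection threshold of 0.189 RPKM lies above the floor. The light chain ratios span 0.0440 to 3.54 for Myl7 to Myl2 in proximal tissue, and the heavy chain ratio 3.20 to 3.78.

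Summed by set, the 4 atrial genes gave 4.40 to 310 RPKM in proximal and 0.953 to 5.93 RPKM in distal libraries. The 3 ventricular genes gave 29.3 to 205 RPKM and 1.76 to 60.2 RPKM. The atrial sum divided by the ventricular sum was 1.05, 0.0460 and 1.52 in wildtype and 0.285, 0.0503 and 0.646 in Notch1+/- proximal libraries. Different genes carried the atrial sum. Myl7 gave 234 of 310 RPKM in wildtype proximal 3, whereas Nppa gave 26.9 of 32.0 RPKM in Notch1+/- proximal 1. In distal libraries it was 0.305, 0.0258 and 1.22 in wildtype and 0.0453, 1.04 and 3.37 in Notch1+/- mice. Leaving floor values out changed the ratio most in wildtype distal 1, to 0.154. Neither location nor genotype separated the ratios, and the libraries of mouse 2 of the wildtype were low at both locations.

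**Figure D4:**
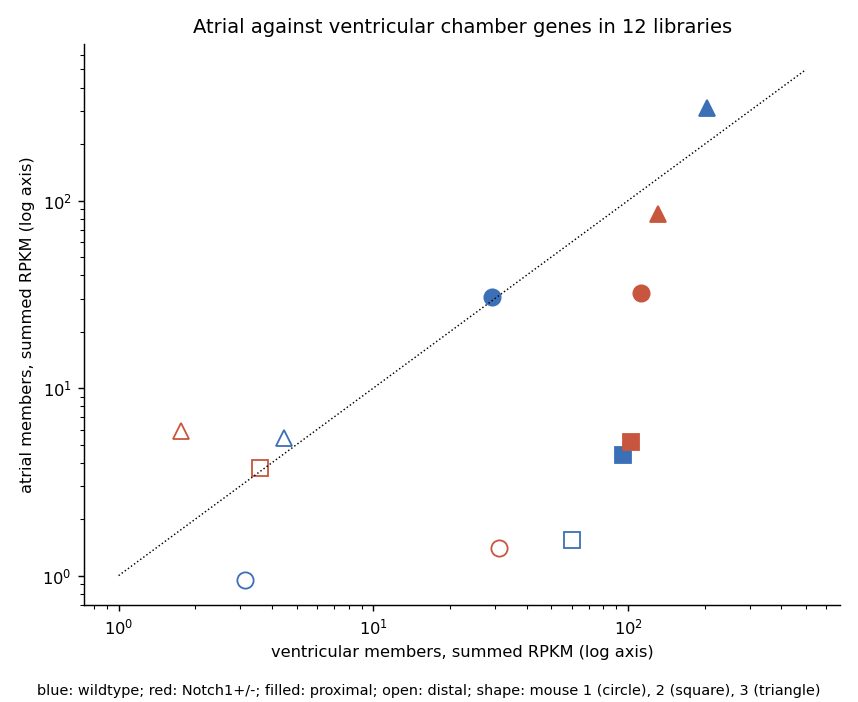
Summed RPKM of the 4 atrial genes against that of the 3 ventricular genes in the 12 libraries, both axes logarithmic, with filled symbols for proximal and open symbols for distal tissue, blue for wildtype and red for Notch1+/-, shapes for the mouse and a dotted line where both sums are equal. Wildtype proximal 3 lies at 310 RPKM atrial and 205 RPKM ventricular, and wildtype distal 2 at 1.55 and 60.2 RPKM.

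To describe the chamber genes apart from the total of heart muscle transcripts, each was divided by a sum over other heart muscle genes in the same library. That sum, over 21 genes of the sarcomere and Z-disc or of cardiac energy supply, ranged from 459 to 1502 RPKM in proximal libraries. Per unit of that sum, the highest proximal library exceeded the lowest by 1.77-fold for Myh6, 1.83-fold for Myh7, 2.79-fold for Myl2, 3.12-fold for Myl3 and 1.67-fold for Pln. The same quantity was 83.9-fold for Myl7, 30.4-fold for Myl4, 19.9-fold for Nppa and 85.8-fold for Sln, whose lowest library was at the floor. After this division the ventricular genes thus lay within 3.12-fold among proximal libraries, and the 4 atrial genes did not. For Corin the division widened the spread, from 1.47-fold to 3.24-fold, or to 4.97-fold with a reference of Tnnt2, Tnni3, Tnnc1 and Mybpc3 alone. With that smaller reference the spread was 60.1-fold for Myl7, 21.1-fold for Myl4, 22.7-fold for Nppa and 61.5-fold for Sln. It was 1.71-fold for Myh7, 2.31-fold for Myl2 and 2.92-fold for Myl3. The sum is uneven in proximal tissue too, as Myom1 stood at 115 RPKM of 459 in wildtype proximal 1 and at 74.3 RPKM of 1502 in wildtype proximal 3. In distal tissue the sum is a poor reference, because Myom1 and Nexn made up 41.3% and 19.6% of it in the 4 libraries with little Myh6.

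Of the 20 reference genes tested, 11 were called higher in proximal tissue and 0 lower, with a median log2 difference of 2.61. The largest differences belonged to Tnnt2, cardiac troponin T (log2 4.01, SE 0.69, limma adjusted p 0.0119), Cox6a2, a subunit of cytochrome c oxidase in heart and skeletal muscle (log2 3.56, SE 0.71, adjusted p 0.0280), and Actc1, cardiac actin (log2 3.48, SE 0.72, adjusted p 0.0330). In the natriuretic peptide system, 2 of 10 tested genes were called higher, Nppa and Corin, and 1 lower. The latter was Npr1, the receptor for atrial natriuretic peptide, with a log2 difference of -0.97 (SE 0.18, limma adjusted p 0.0186) and 4.99 to 9.71 RPKM in proximal against 11.8 to 18.3 RPKM in distal libraries. The median of that list was 0.07. Among 13 tested genes of calcium handling in the sarcoplasmic reticulum, Pln and Trdn, the triadin gene, were called higher (Trdn log2 2.03, SE 0.40, adjusted p 0.0248), with a list median of 0.36. The pump gene Atp2a2, on which Pln and Sln act, stood at 63.2 to 152 RPKM across all libraries (log2 0.30, SE 0.20, limma adjusted p 0.664). Of 14 tested myosin chain genes, Myh6, Myh7 and Myl3 were called higher and 0 lower, with a list median of 0.05.

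Further chamber genes were too low for the test. Among 5 listed atrial genes in the table, Mybphl, which encodes a myosin-binding protein of atrial and conduction muscle, stood at 5.28 RPKM in wildtype proximal 3 and 1.61 RPKM in Notch1+/- proximal 3 and at the floor in the other 10 libraries. Kcnj5, a subunit of the acetylcholine-gated potassium channel of atrial cells, had its highest levels, 5.06 and 1.81 RPKM, in the same pair, as did its partner Kcnj3 at 2.10 and 1.33 RPKM. Tbx5, a transcription factor of the atria and left ventricle, followed at 5.90 and 2.32 RPKM. These are also the proximal libraries highest in Myl7, Myl4 and Sln. Kcna5, by contrast, was highest in wildtype proximal 1, at 0.995 RPKM. The ventricular gene Kcnip2, a potassium channel subunit, did not exceed 0.874 RPKM in any library. Nppb, the gene for the related B-type peptide, was above the floor in 3 proximal libraries, at 1.90 RPKM in wildtype 3, 1.64 RPKM in Notch1+/- 1 and 0.693 RPKM in Notch1+/- 3. Those 3 were the libraries highest in Nppa. The genes in this paragraph were singled out after their values were seen.

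Among markers of other cell types, limma called 0 of 6 endothelial, 0 of 6 fibroblast, 0 of 5 macrophage, 0 of 5 mesothelial, 0 of 5 fat and 0 of 2 skeletal muscle markers tested in the averaged contrast. At an unadjusted p under 0.05 there were 3, 1, 4, 2, 1 and 2 of them in the same order, where 1924 of all 17297 tested genes reached it. Their median log2 differences were 0.09, -0.31, 0.62, -0.82, 0.73 and 0.09 in that order. Of 8 smooth muscle markers, Des, which encodes the intermediate filament desmin of all muscle types, was called higher (log2 1.56, SE 0.17, limma adjusted p 6.81e-04). Summed macrophage markers ranged from 41.2 to 74.8 RPKM in proximal and from 13.1 to 54.2 RPKM in distal libraries, and summed fat markers from 4.59 to 70.9 and from 1.34 to 60.8 RPKM. The part of these cell types in the results for the chamber genes was not tested. Of 15 listed skeletal muscle genes, 4 were among the genes of the expression table. The fast myosin genes Myh1, Myh2 and Myh4 were not, so their levels are unknown here. Of those in the table, Acta1 stood at 10.7 to 26.0 RPKM in proximal and at 6.51 to 14.2 RPKM in distal libraries. Casq1 stood at 4.48 to 7.99 RPKM in proximal and at 5.03 to 12.2 RPKM in distal libraries. The light chain gene Myl1 did not exceed 0.757 RPKM in any library, and Tnnt1 did not exceed 0.934 RPKM.

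The genes most alike in pattern were found from the root mean square difference of centred log2(RPKM + 0.5) values over the 12 libraries. For Myl2 the 5 nearest genes outside the set were Tnni3 (cardiac troponin I), Cox6a2, Gm13938, Ttn (titin) and Mhrt, a transcript antisense to Myh7, at distances of 0.44 to 0.50 on the log2 scale. Myl3 was nearer still at 0.41, whereas Myl7 was at 2.37. For Myl7 the nearest were Gm13054, Hamp (hepcidin, the iron hormone), Trdn, Slc25a34 and Gm22752, all at 1.52 or more, with Sln at 0.99, Myl4 at 1.23 and Nppa at 1.45. Gm13054 overlaps Nppa and Mhrt overlaps Myh7, so without strand the reads of neither can be told apart from those of the chamber gene. For Corin the nearest were Gata4 and Tbx20, transcription factors of the developing heart and its valves, Cd74, the invariant chain of MHC class II, Mmrn1, which encodes multimerin, and Col8a1, a short-chain collagen of vessel walls, at 0.37 to 0.49. Among the chamber genes Pln was nearest to Corin, at 0.63. In wildtype proximal 1, where Myh6, Myh7, Myl2 and Myl3 were lowest among proximal libraries, Gata4 stood at 6.41 and Tbx20 at 26.2 RPKM. Over all proximal libraries they ranged from 5.27 to 11.7 and from 13.3 to 27.4 RPKM. Both genes were picked for their likeness to Corin over these same libraries. That they were not low in this library thus follows in part from the choice and is no separate support.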

How the data were processed

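RNA of 12 aortic samples was amplified from 10 ng with a NuGEN Ovation kit, which does not mark strand, and sequenced as paired 50-base reads, per the labels' protocols. TopHat2 2.1.0, Bowtie2, R 3.2.2 and build mm10 are named in the submitters' processing notes. How reads were counted, and on which annotation, is not given in the sources used here. RPKM per gene are deposited values that the authors computed, with values below each library's detection threshold, an RPKM set from 10 reads, replaced by 0.158 RPKM, per the file headers and the values. Short genes can thus keep values that rest on fewer reads. 9.78% of values lay at this floor. Another 24 columns, a re-sorted copy and a correlation matrix, were not used.

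Reads behind the chamber genes were worked back from the RPKM, whose denominators were 14476722 to 20017786 reads. Mitochondrial genes held 24.1% to 43.7% of summed RPKM. Testing used limma 3.58.1 (R 4.3.3), with a variance trend, on log2(RPKM + 0.5) for the 17297 genes with at least 1 RPKM in at least 3 libraries. This scale understates changes of low genes, and ratios given are those of mean RPKM. The fit had 4 group means and 6 contrasts, tests were 2-sided, and genes with a Benjamini-Hochberg adjusted p under 0.05 were called. The fit was tested on simulated data. Ratios and sums over the chamber genes carry no test.

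Replicates are separate mice, and proximal and distal libraries of a number come from the same mouse, per the customer IDs in the deposited sample sheet. Their deviations from the group means correlated at 0.0731 to 0.216. Alternatives changed the pseudocount, filter, scaling, block and libraries. The chamber genes and gene lists were chosen with earlier results of these data known. Named genes are all 10 chamber genes, at most 3 called genes per further list (those with the largest difference) and the 5 nearest genes to Myl7, Myl2 and Corin. Overlaps come from GENCODE M21 of the same build.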

Additional observations from a re-analysis of the deposited data

Results flagged for a closer look

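Of 20 sets of 6 libraries examined (10 genes at 2 locations), 4 held a library whose gap to its neighbour on the RPKM scale took up a large share of the range. For normally distributed values chance marks about 1 in 20 sets, a rate that does not apply to the count of 4, since the genes vary together and RPKM are skewed. Wildtype proximal 3 stood apart for Myl4 at 14.7 RPKM (next 3.64), for Myl7 at 234 RPKM (next 58.3) and for Sln at 27.7 RPKM (next 8.83). In all 3 cases the next library was Notch1+/- proximal 3. Wildtype distal 3, from the same mouse as the former, stood apart for Sln at 0.783 RPKM, or 21 reads, with the other 5 distal libraries at the floor, so that its gap fills the range by construction.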

How the results depend on the processing

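Each chamber gene tested kept a higher fitted level in proximal tissue under every alternative of the averaged contrast, where 8 to 10 genes passed the filter. Corin was called in 22 of 22 alternatives, with limma adjusted p of 8.70e-05 to 0.00366. Of the same 22, Pln was called in 21, Myl3 and Myh7 in 12 each, Myh6 in 10, Nppa in 9, Myl2 in 4 and Myl7 in 0. Sln was called in 1 of the 21 alternatives where it passed the filter, and Myl4 in 0 of 17. These counts include the library pairs left out after seeing the data, described below. A pseudocount of 0.1 ended the call of Myh6 and a pseudocount of 1 that of Nppa, leaving 5 genes called in place of 6. Leaving out 1 library gave 2 to 6 in the averaged contrast, 0 to 2 in wildtype and 1 to 2 in Notch1+/- mice, each against 1 in the full set within a genotype. In wildtype the call of Corin was lost without wildtype proximal 1 or 3 and without wildtype distal 1 or 3, and Myh7 was gained without wildtype distal 2. In Notch1+/- mice Pln was gained without that same library. The wildtype count was also 0 with the replicate block and 0 with only the 6 wildtype libraries in the fit. The replicate block changed no other call of a chamber gene. The cause of these changes was not tested.

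Further alternatives were chosen after seeing the data. Without both proximal libraries with the most Myl7 the count was 1 in the averaged contrast and 0 in wildtype. Without both distal libraries with the most Myh6 it was 5 in wildtype, 6 in Notch1+/- mice and 6, as before, in the averaged contrast. Leaving out the libraries with the highest distal or proximal values widens or narrows the location difference by construction, so these counts say nothing of stability. Over all genes, 260 were called in the averaged contrast, 141 to 228 with 1 library left out, 104 without the Myl7 pair and 156 without the Myh6 pair. In wildtype 41 were called, 7 to 45 with 1 library left out, 21 with the block, 5 with the wildtype libraries alone, 12 without the Myl7 pair and 65 (21 higher) after rescaling without mitochondrial genes, against 20 higher of 41. In Notch1+/- mice 44 were called, 14 to 51 with 1 library left out, 29 at a pseudocount of 0.1 and 17 without the Myl7 pair. Median-of-ratios scaling moved the median of all genes from -0.13 to 0.01 in wildtype. No chamber gene was called between genotypes or for the interaction under any alternative. Values near the floor rest on as few as 5 reads, which limits the precision of Myl4, Myl7, Nppa and Sln in distal libraries.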

Other observations

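Some genes listed for the cardiac conduction system, singled out after their values were seen, were highest in the proximal libraries highest in Myl7. Hcn4, the pacemaker channel of the sinoatrial node, stood at 3.38 RPKM in wildtype proximal 3 and 1.87 RPKM in Notch1+/- proximal 3, and did not exceed 0.197 RPKM in the other 10 libraries. Cntn2, a cell adhesion protein of conduction cells, stood at 8.17 and 2.78 RPKM in the same pair and at no more than 0.328 RPKM elsewhere. The pair also held the highest levels of Tbx3, at 2.41 and 1.06 RPKM, and of the calcium channel gene Cacna1g, which reached 2.78 RPKM in wildtype proximal 3. Isl1, which also marks nodal and progenitor cells, did not follow, with 0.332 and 0.520 RPKM in the pair and up to 1.67 RPKM in wildtype proximal 2. Neither did the calcium channel gene Cacna1d, at 2.21 and 1.93 RPKM in the pair and up to 3.71 RPKM in distal libraries. Of the 8 conduction genes listed, 2 passed the filter on low values, Cacna1d and Isl1, and limma called 0 of them in the averaged contrast (adjusted p 0.833 and 0.720), with 0 at an unadjusted p under 0.05. Hamp, the gene of the iron hormone hepcidin, stood at 166 RPKM in wildtype proximal 3 and 47.4 RPKM in Notch1+/- proximal 3, and at no more than 7.57 RPKM in the other libraries.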
